A study of Mus musculus with 8 samples.

Results

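The 10 genes described here encode SOX transcription factors, and they were taken by symbol from the 27036 genes of the deposited table: *Sox2*, *Sox4*, *Sox5*, *Sox6*, *Sox9*, *Sox10*, *Sox11*, *Sox12*, *Sox17* and *Sox18*. The symbol *Sox4* stands on 2 rows of that table, so the 10 symbols cover 11 rows. SOX proteins share the HMG box, a DNA-binding domain that bends the helix from the minor groove, and they usually act together with a partner factor. They are sorted into groups by the likeness of that domain, and many of them mark a lineage: SOXB proteins pluripotent and neural stem cells, SOXC proteins progenitors, SOXD and SOXE proteins cartilage and neural crest, and SOXF proteins endothelium and endoderm. In the prostate, SOX9 is known from the epithelial buds of the embryo and from basal cells of the adult gland.

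Bulk RNA-seq libraries were made from 3 WT prostates, 3 prostates with prostatic intraepithelial neoplasia (PIN) and 2 prostatic adenocarcinomas (PCa). PIN and PCa tissue was from animals of genotype R26 mTmG/hAR:Osr1 Cre/+, whose Cre recombinase, driven by the *Osr1* promoter, switches on a floxed human androgen receptor transgene (*hARtg*) and a membrane GFP reporter at the Rosa26 locus. The WT controls were R26 mTmG/+:Osr1 Cre/+ mice matched for sex and age, so that every group carried the reporter and *Osr1-Cre*, and all were of mixed C57BL/6 and 129S1/SvImJ background. The age of the animals behind each library is not given in the sources used here, and lesions were chosen under the microscope for a high share of atypical or tumor cells. The paper reports an earlier onset of PIN than of PCa lesions. Any difference of age between PIN and PCa animals cannot be told apart from lesion. The comparisons ask which SOX genes differ between normal gland, early neoplasia and tumor.

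The libraries held 21751803 to 29730420 counts on genes, and these were scaled to a common library size, as CPM, with edgeR's normalization factors. WT 1 held 15832 CPM of 6 seminal vesicle genes, mostly *Svs2* and *Svs5*, against 0.634 and 0.769 in WT 2 and WT 3, 32.5 to 84.4 in PIN, 2868 in PCa 1 and 692 in PCa 2. WT 2 had the lowest level of the 3 WT libraries for all 7 smooth muscle genes and for 11 of 12 endothelial genes. The 8 luminal genes, led by *Cd24a* and *Krt18*, were present throughout, at 3118 to 11707 CPM in sum. Prostate secretory genes summed to 45765 to 85119 CPM in WT and PIN and to 6008 and 1207 in PCa 1 and PCa 2, and 2 of 5 (*Pbsn* and *Tgm4*) were called lower in PCa against WT, as were 2 of 3 tested skeletal muscle genes (*Acta1* and *Ckm*). In PCa 1, *Sbp* made 5784 of the 6008 CPM, and it had 9552 CPM in WT 1 but at most 0.0906 in WT 2 and WT 3. The 7 smooth muscle genes summed to 2025 to 5876 CPM in WT and PIN and to 42.8 and 19.8 in PCa. In tissue RNA of this kind, fewer cells of a type and less RNA per cell cannot be told apart. The library numbers in the labels put WT 1, the other WT libraries and the PIN and PCa libraries in 3 separate ranges, and any difference of handling between these ranges cannot be told apart from condition.

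Counted per exon length as TPM, the length-corrected counterpart of CPM, *Sox9*, *Sox12* and *Sox4* were the most abundant of the 10 genes in WT. Their levels were 29.4 ± 11.7, 19.9 ± 9.16 and 19.0 ± 1.31 TPM (SD, n = 3), and these ranges overlapped. The next gene in order was *Sox18*, at 3.66 ± 3.61 TPM, and its range did not reach that of *Sox4*. *Sox2* stood at 3.07 ± 1.44 TPM, *Sox10* at 1.58 ± 1.45, *Sox17* at 1.40 ± 0.981 and *Sox6* at 1.31 ± 0.660, each overlapping its neighbor. *Sox5* and *Sox11* were the lowest, at 0.339 ± 0.137 and 0.298 ± 0.215 TPM, below the range of *Sox6*. The same 3 genes led in PIN, at 43.2 ± 35.6 TPM for *Sox9*, 25.6 ± 12.1 for *Sox4* and 19.0 ± 0.880 for *Sox12*. In PCa the order of the means was *Sox4* at 55.6 and 321 TPM, *Sox9* at 69.3 and 223, and *Sox12* at 21.1 and 29.5, and the last of these lay apart from both others. *Sox6* came next by its mean, which PCa 2 carried, with 0.763 TPM in PCa 1, below *Sox18*, *Sox2* and *Sox17* there, and 16.0 in PCa 2.

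Promoters are shown for *Sox4* and *Sox5*, which were called in 1 comparison each, and for *Sox12*, which stayed level. Of the 10 genes, 6 had an entry among the RefSeq promoters used here, with 11 windows in all, each from 250 bases before to 50 bases after a transcription start. *Sox9*, *Sox10*, *Sox17* and *Sox18* had none. Capitals mark matches, on either strand, to CCAAT (the CCAAT box), TATAAA (the TATA box), AACAAT (a SOX core), CTTTGA (a TCF/LEF core) and AGAACA (an androgen response half-site). All windows are given 5′ to 3′ on the gene's own strand, from GRCm38.p6, and all 3 genes lie on the minus strand.
Sox4, chr13:28953650-28953949: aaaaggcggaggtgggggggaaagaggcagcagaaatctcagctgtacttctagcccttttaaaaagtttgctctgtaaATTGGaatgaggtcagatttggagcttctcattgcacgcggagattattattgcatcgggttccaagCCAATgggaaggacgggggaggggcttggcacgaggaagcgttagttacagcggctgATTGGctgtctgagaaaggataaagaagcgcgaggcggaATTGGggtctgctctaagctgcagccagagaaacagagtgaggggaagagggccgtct
Sox5, chr6:143947057-143947356: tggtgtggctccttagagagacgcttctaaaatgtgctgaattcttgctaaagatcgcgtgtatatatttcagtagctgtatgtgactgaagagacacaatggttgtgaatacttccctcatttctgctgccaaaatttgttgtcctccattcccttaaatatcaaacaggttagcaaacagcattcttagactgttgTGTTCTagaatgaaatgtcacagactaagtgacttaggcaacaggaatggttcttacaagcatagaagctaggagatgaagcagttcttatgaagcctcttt
Sox12, chr2:152397997-152398296: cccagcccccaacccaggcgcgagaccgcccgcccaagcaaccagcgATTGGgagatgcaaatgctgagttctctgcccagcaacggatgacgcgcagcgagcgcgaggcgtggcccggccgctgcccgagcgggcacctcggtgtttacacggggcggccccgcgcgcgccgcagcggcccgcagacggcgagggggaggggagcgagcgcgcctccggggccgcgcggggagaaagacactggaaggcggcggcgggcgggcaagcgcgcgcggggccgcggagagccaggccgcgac
The *Sox4* window held 4 CCAAT boxes, which begin at -171, -104, -47 and -8 from the start, and none of the other motifs. The *Sox5* window held an androgen response half-site at -52 on the opposite strand, and the *Sox12* window a CCAAT box at -203. Over all 32851 RefSeq windows, 37.4% held a CCAAT box, 19.0% the androgen response half-site, 16.0% the TCF/LEF core, 13.6% the TATA box and 10.7% the SOX core. The windows also differed in base composition, with 47 CpG in *Sox12* (76.7% GC), 12 in *Sox4* (52.0% GC) and 3 in *Sox5* (39.7% GC), against a median of 52.7% GC over all windows. On mm9, *Sox5* runs from 143776945 to 144730497 on the minus strand, so its 5′ end has the higher coordinate. Its window, given in another build, lies nearer the other end, so it may be an internal start and not the main promoter. These matches describe the letters of the windows and say nothing of binding.

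All SOX genes but *Sox11* had more than 1 CPM in at least 2 libraries, and these 9 were tested among 14034 genes. Calls required a change of more than 2-fold in either direction together with an adjusted p under 0.05, and p-values measure the spread between these libraries. PIN against WT gave 0 calls among the 9, where the share over all tested genes was 0%, and 0 of 9 had an unadjusted p under 0.05, against 3.51% of all genes. PCa against WT gave 1 call, *Sox4*, which was higher. The share called over all tested genes was 8.54%, with 4.35% higher and 4.18% lower, and an unadjusted p under 0.05 was found for 5 of 9 SOX genes against 27.5% of all genes. PCa against PIN gave 1 call, *Sox5*, which was lower. Of all genes 5.72% were called there, with 2.55% higher and 3.17% lower, and 3 of 9 SOX genes against 22.8% of all genes had an unadjusted p under 0.05. *Sox10* is 1 of these 3 and 1 of the 5 in PCa against WT. It passed the filter only through WT 1 and WT 3, so its p-values there are a description.

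The groups of libraries were also compared by whether their values overlapped. In PIN against WT, 1 SOX gene was higher without overlap (*Sox5*) and 0 were lower, against 6.48% and 6.38% of all tested genes (12.9% in either direction). In PCa against WT, 2 were higher (*Sox4* and *Sox9*) and 2 lower (*Sox5* and *Sox10*), against 17.7% and 19.6% (37.3% in either direction). In PCa against PIN, 1 was higher (*Sox4*) and 3 lower (*Sox2*, *Sox5* and *Sox10*), against 21.1% and 23.2% (44.3% in either direction). The median log2 fold change of the 9 genes was 0.23 in PIN over WT, 0.02 in PCa over WT and -0.01 in PCa over PIN, and over all tested genes it was -0.02, 0.01 and 0.07. With DESeq2, *Sox4*, *Sox5*, *Sox9* and *Sox10* were called between PCa and WT, where 17.7% of all genes were, and *Sox4*, *Sox5* and *Sox10* between PCa and PIN, where 14.1% were. DESeq2 called 0 SOX genes between PIN and WT, against 0.278% of all genes. *Sox10* passed the filter only through WT 1 and WT 3, so its part in these overlaps and DESeq2 calls is a description.

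**Figure D1:**
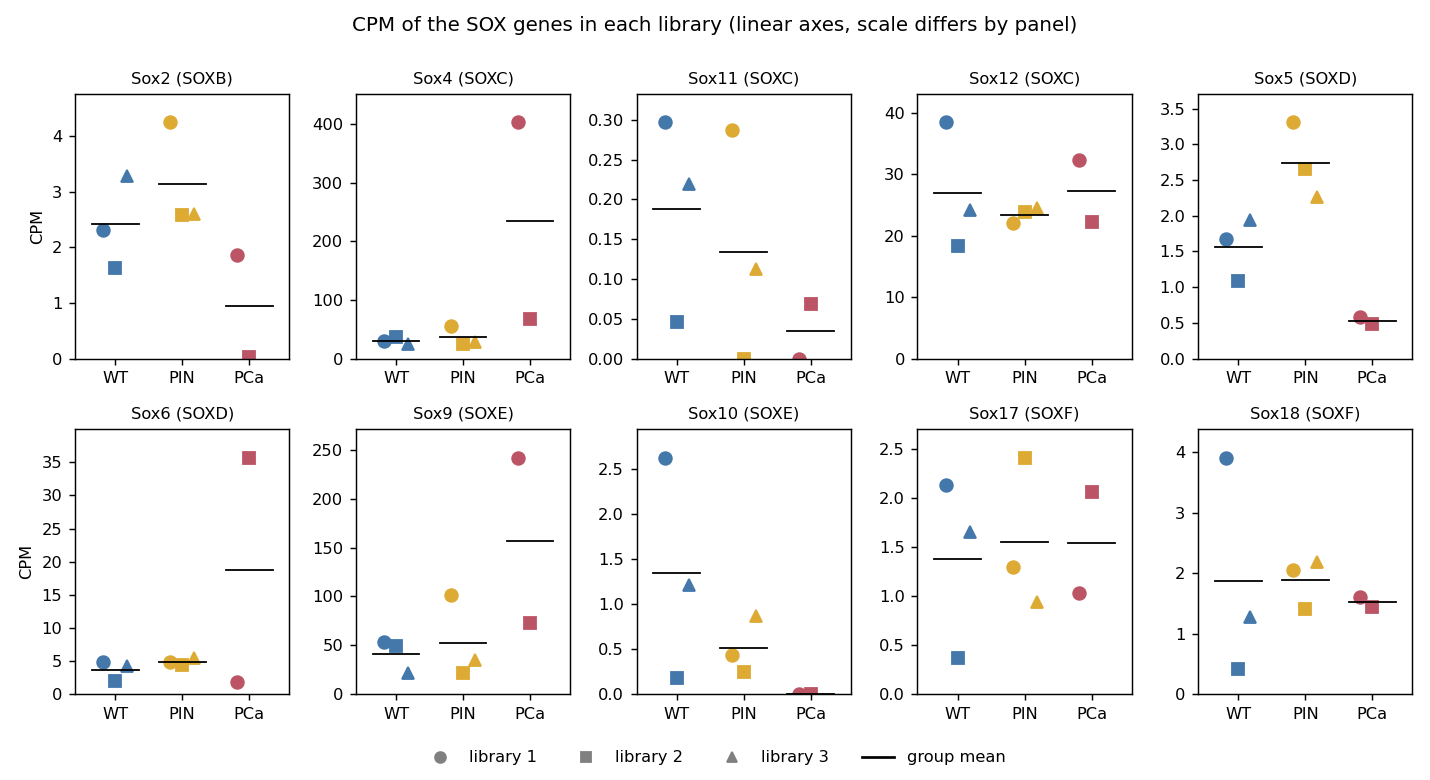
CPM of the 10 SOX genes in each library on linear axes, with 3 WT (blue), 3 PIN (yellow) and 2 PCa (red) libraries, marker shape for the library number and a black line for the group mean. *Sox4* reached 403 CPM in PCa 1 and 67.3 in PCa 2, both *Sox5* values in PCa lay below all others, and *Sox6* was high only in PCa 2, at 35.7 CPM.

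*Sox4* had the largest fitted rise of the SOX genes in PCa over WT, though in PCa 2 alone *Sox6* stood further above the WT mean (9.67 times, against 2.19 for *Sox4*). It encodes a SOXC factor of progenitor cells that is often abundant in epithelial cancers. It had 30.4, 36.9 and 24.9 CPM in WT, 55.1, 24.6 and 28.6 in PIN, 403 in PCa 1 and 67.3 in PCa 2. Both PCa libraries thus lay above all 6 WT and PIN libraries, which 13.4% of all tested genes did, and PIN 1 stood above the other PIN libraries and all WT libraries. In PCa over WT the log2 fold change was 2.94 (SE, the standard error, 0.68, a 7.65-fold rise, adjusted p = 0.0403 with edgeR and Benjamini-Hochberg), and in PCa over PIN it was 2.71 (SE 0.68, adjusted p = 0.0598 with edgeR), short of the threshold. In PIN over WT the log2 fold change of *Sox4* was 0.23 (SE 0.60, adjusted p = 1 with edgeR). The size of the rise differed by tumor, at 13.1 times the WT mean in PCa 1 and 2.19 times in PCa 2. Leaving out any 1 WT or PIN library, or PCa 1, ended the *Sox4* call (adjusted p from 0.0596 to 0.127 with edgeR), as did a fit of WT and PCa alone (adjusted p = 0.120). The log2 fold change was 1.14 without PCa 1, 3.73 without PCa 2, and 2.80 to 3.09 without any other library.

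The *Sox4* gene lies on chromosome 13 of mm9 from 29040788 to 29045582 on the minus strand. The other row named *Sox4* (ENSMUSG00000078309) lies inside it and had 0 counts in every library. An antisense gene, *Gm17419*, also overlaps *Sox4*, and its counts were 1.10% to 2.96% of those of *Sox4*, with 371 counts in PCa 1 and at most 38 elsewhere. Whether counting used strand is not given in the sources used here, so reads of *Sox4* and *Gm17419* may be split between them.

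Of the other SOXC genes, *Sox12* was not called and *Sox11* could not be tested. *Sox12*, a widely expressed SOXC factor, had 38.4, 18.3 and 24.1 CPM in WT, 22, 23.8 and 24.4 in PIN, and 32.3 and 22.2 in PCa. All 3 groups overlapped, and PCa and WT differed by 0.02 in log2 (SE 0.34, adjusted p = 0.982 with edgeR). *Sox11*, known from embryonic neurons, had 6, 1 and 6 counts in WT, 8, 0 and 3 in PIN, and 0 and 2 in PCa, so that no difference was detectable at this depth. *Tubb3* and *Dcx*, neuronal genes that SOXC factors are known to activate, were low too, at up to 4.55 CPM for *Tubb3* in WT 1 and up to 0.0494 CPM for *Dcx*.

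*Sox9* encodes the SOXE factor of cartilage, testis and prostatic buds, and it had the second largest CPM of the SOX genes in PCa 1 and the largest in PCa 2. It stood at 53.2, 49.5 and 21.2 CPM in WT, 101, 21.4 and 35.1 in PIN, 242 in PCa 1 and 72.3 in PCa 2. Both PCa libraries lay above every WT library, as for *Sox4*, making 2 of 9 SOX genes higher without overlap against 17.7% of all tested genes, while PIN 1 lay above PCa 2. In PCa over WT the log2 fold change of *Sox9* was 1.93 (SE 0.75, adjusted p = 0.149 with edgeR), which did not pass, and DESeq2 put it at 1.95 with an adjusted p of 0.0483. In PCa over PIN it was 1.58 (SE 0.75, adjusted p = 0.261 with edgeR). PCa 1 held 5.87 times the WT mean of *Sox9* and PCa 2 1.75 times, the order seen for *Sox4*. In PIN over WT, the log2 fold change of 0.35 (SE 0.68, adjusted p = 1 with edgeR) turned to -0.56 without PIN 1.

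Genes of the SOX9 cartilage program were near the limit of detection. Of 10 such genes, 1 passed the filter, *Col11a2*, a collagen chain of cartilage, which stood at 4.18 and 1.75 CPM in the tumors against 0.586 to 1.33 in WT. The log2 difference of 1.46 was not called, and *Hapln1*, a cartilage link protein, had 4.46 CPM in PCa 2 and at most 0.490 elsewhere. *Col2a1*, the main collagen of cartilage, had at most 0.414 CPM in any library. Of 11 genes of prostate bud development, all tested, 1 was called in PCa against WT, and the list had a median log2 change of -0.51. The called gene was *Fgfr2*, the receptor for the stromal growth factor FGF10, which reached 98.7 and 158 CPM in the tumors from 28.7 to 60.6 in WT (log2 fold change 1.48).

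*Sox10*, the SOXE factor of neural crest, Schwann cells and melanocytes, was the only one of the 9 tested genes with 0 counts in both tumors. It had 53, 4 and 33 counts in WT and 12, 7 and 23 in PIN, which is 2.62, 0.181 and 1.21 CPM in WT and 0.432, 0.241 and 0.866 in PIN. Against a floor of 3 counts in a PCa library (0.103 CPM in PCa 2), *Sox10* was at least 13-fold lower than the WT mean and at least 4.99-fold lower than the PIN mean, for counting error only. WT 2 itself stood at 1.76 times that floor. *Sox10* passed the filter only through WT 1 and WT 3, the 2 libraries above 1 CPM, so that a gene kept in this way had to be higher in WT, and its p-values are given as a description. The test of PCa gave an adjusted p of 0.0515 against WT and 0.0984 against PIN (edgeR), neither of which passed. DESeq2 gave an adjusted p of 0.0009 and 0.0103, and edgeR without WT 2 gave 0.0320 and 0.0498. With no filter on low counts, edgeR gave an adjusted p of 0.0495 against WT and 0.0949 against PIN. Against WT it was 0.154 with only the 2 groups compared, and against PIN it was 0.169 to 0.246 with 1 PIN library left out (edgeR).

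Of the genes of Schwann cells and glia, few passed the test, and those that did were lower in PCa. *Mbp*, which encodes myelin basic protein, had 61.1 to 85.9 CPM in WT, 54 to 63.1 in PIN, and 29.3 and 20.1 in PCa, and it was called lower in PCa against WT (log2 fold change -1.57). *Foxd3*, a neural crest factor, had 0 counts in both PCa libraries, and *Cdh19*, a Schwann cell cadherin, 0.161 and 0 CPM there against 0.589 to 2.42 in WT. *Foxd3* was under the filter, and *Cdh19* was not called (adjusted p = 0.0649 with edgeR). *Prx*, another gene of myelinating Schwann cells, had 3.12 and 4.15 CPM in PCa against 1.36 to 4.40 in WT, and *Egr2*, a myelination factor, 4.99 and 0.240 against 0.329 to 2.22, with log2 fold changes of 0.23 and 1.25 that were not called. Of 11 genes on the Schwann cell and glia list, 7 were tested, and 2 were called lower and 0 higher in PCa against WT, and the list had a median log2 change of -0.51. The summed level of the list was 224 to 337 CPM in WT and 906 and 304 in PCa, since *Erbb3*, a receptor that epithelium also expresses, reached 864 CPM in PCa 1. Melanocyte genes were scarce in every group, with 3 of 7 tested, 0 called and 15.3 to 28 CPM in sum, most of it *Ednrb* and *Mitf*. What part nerve tissue has in the *Sox10* values was not tested.

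The SOXD genes *Sox5* and *Sox6* encode factors without an activation domain of their own that assist SOX9 in cartilage. *Sox5* had 1.68, 1.09 and 1.94 CPM in WT, 3.31, 2.65 and 2.26 in PIN, and 0.579 and 0.480 in PCa. The 3 groups did not overlap, with PIN above WT and PCa below both. *Sox5* was the only 1 of 9 SOX genes higher in PIN without overlap, against 6.48% of all tested genes. In PCa over PIN it fell by 2.36 on the log2 scale (SE 0.53, a 5.14-fold fall, adjusted p = 0.0464 with edgeR). Against WT the log2 change in PCa was -1.56 (SE 0.52, adjusted p = 0.102 with edgeR) and in PIN over WT 0.80 (SE 0.44, adjusted p = 1 with edgeR). The direction in PCa against PIN held under all 13 alternatives, at -2.49 to -2.19, but the call was kept under 3 of them (DESeq2, without WT 2 and without PCa 1). The counts behind these values were low, 18 and 14 in the PCa libraries and 60 to 92 in PIN.

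*Sox5* and *Sox10* were the 2 SOX genes with both PCa libraries below all 6 others, an arrangement found for 15.4% of all tested genes. The place of *Sox10* there is a description, as it passed the filter only through WT 1 and WT 3. Smooth muscle genes moved in the same direction, as all 7 were called lower in PCa against WT, led by *Cnn1*, *Myh11*, *Actg2* and *Des*, and the list had a median log2 change of -6.65, and none of them was at 0 in PCa. Within WT, *Sox5* and the smooth muscle sum were both lowest in WT 2 and highest in WT 3, and within PIN, *Sox5* was highest in PIN 1 and the smooth muscle sum in PIN 3. The part of smooth muscle in the *Sox5* values was not tested.

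*Sox6* was high in a single tumor. It had 4.84, 1.95 and 4.28 CPM in WT, 4.79, 4.44 and 5.42 in PIN, 1.77 in PCa 1 and 35.7 in PCa 2. PCa 1 lay below every WT and PIN library and PCa 2 above every one of them, a 20.2-fold gap between tumors. The log2 fold change in PCa over WT was 2.34 (SE 0.97, adjusted p = 0.168 with edgeR), a mean of opposite values. It was -1.04 without PCa 2 and 3.28 without PCa 1, where the adjusted p was 0.00486 with edgeR and the lone PCa library was taken to vary like the other groups.

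Wnt/β-catenin genes differed between the same tumors. *Lef1*, which encodes an HMG-box partner of β-catenin, stood at 2.38 CPM in PCa 1 and 32.4 in PCa 2, against 2.58 to 6.23 in WT. *Axin2*, a feedback inhibitor and common target of the pathway, had 42.7 CPM in PCa 1 and 681 in PCa 2. The 9 genes of this list summed to 882 to 1000 CPM in WT, 844 to 894 in PIN, 889.7 in PCa 1 and 3261 in PCa 2. Among them 1 was called in PCa against WT, *Notum*, a secreted Wnt inhibitor, with 12.5 and 150.2 CPM in PCa against 1.04 to 3.26 in WT, and the median log2 fold change was 1.01. Both tumors stood above WT for *Notum*, unlike for *Sox6*.

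**Figure D2:**
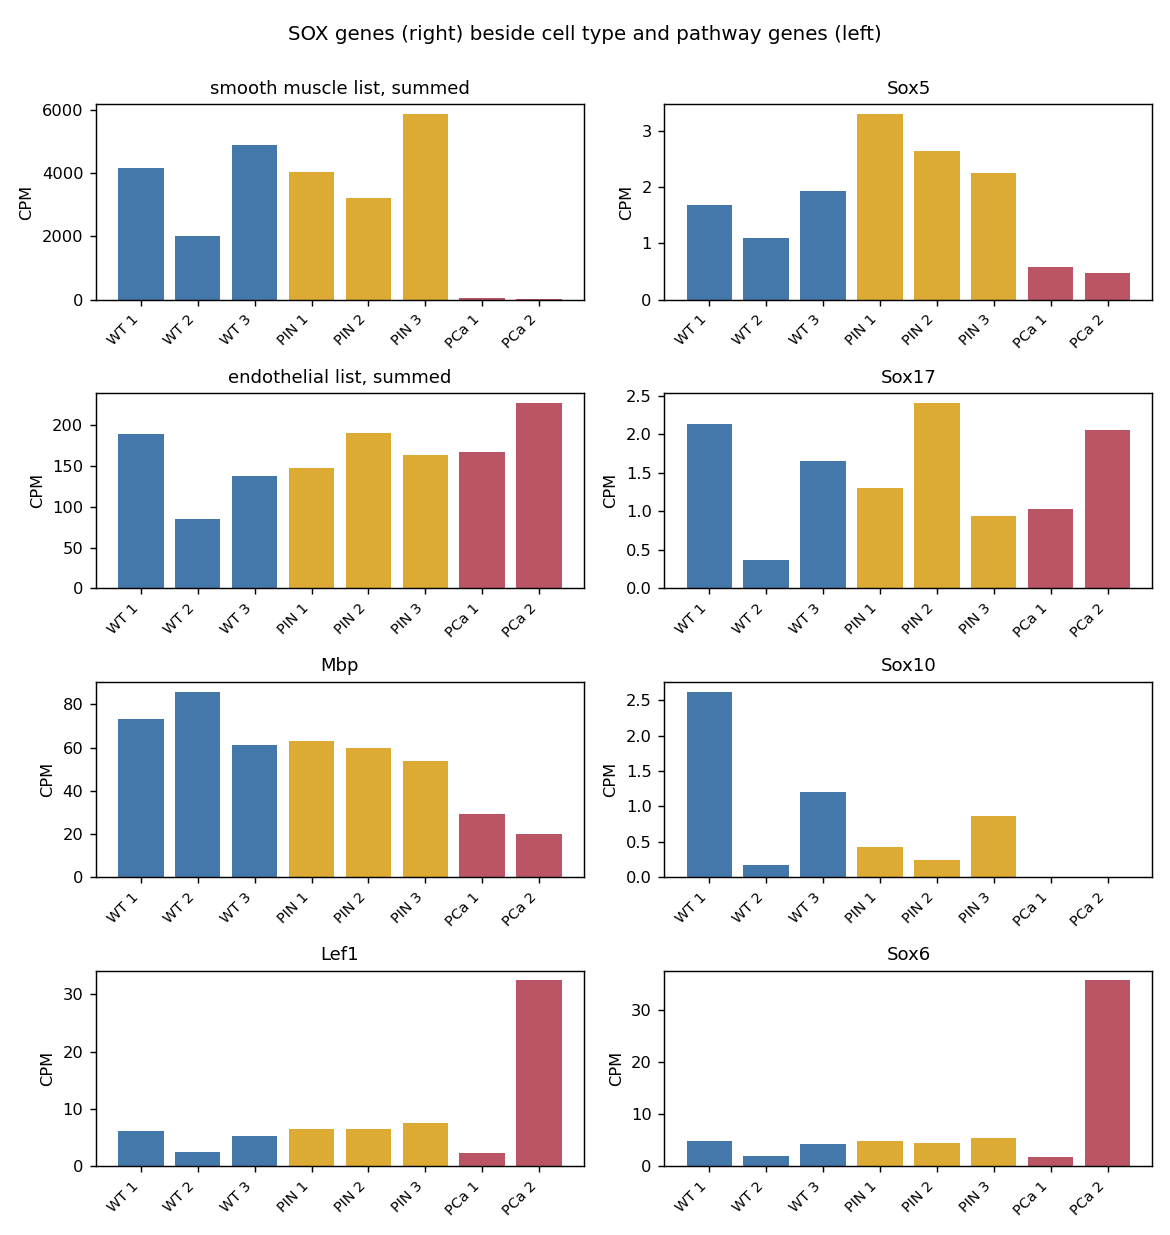
CPM in each of the 8 libraries (bars, linear axes from 0; WT blue, PIN yellow, PCa red) of 4 SOX genes on the right and, on the left of each, cell type or pathway genes. The smooth muscle sum was 42.8 and 19.8 CPM in PCa beside low *Sox5*, the endothelial sum and *Sox17* were both lowest in WT 2, *Mbp* was at 29.3 and 20.1 CPM in PCa beside *Sox10* at 0, and *Lef1* and *Sox6* were both high in PCa 2.

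*Sox2*, the SOXB factor of pluripotent cells that is also found in basal and neuroendocrine cells of the prostate, differed between the tumors in the other direction. It had 2.32, 1.63 and 3.29 CPM in WT, 4.25, 2.58 and 2.6 in PIN, 1.87 in PCa 1 and 0.0343 in PCa 2. PCa 1 fell within the WT range, while PCa 2 held 1 count, which is 0.0142 of the WT mean (95% Poisson interval 0.000359 to 0.0791). The log2 fold change was -1.34 in PCa over WT (SE 1.15, adjusted p = 0.493 with edgeR) and -1.72 in PCa over PIN (SE 1.16, adjusted p = 0.424 with edgeR). Both values rested on PCa 2. Without PCa 2 they were -0.36 and -0.73 (adjusted p = 0.751 and 0.556 with edgeR), and without PCa 1 they were -5.95 and -6.32 (adjusted p = 0.00936 and 0.00858 with edgeR), where the only PCa library held 1 count and was taken to vary like the other groups. *Sox2* lies within *Sox2ot*, a long non-coding gene on the same strand with at most 11 counts in any library.

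The partners of SOX2 in pluripotent cells were mostly at or near 0 counts. Of 8 pluripotency genes, 1 was tested, *Klf4*, which epithelium also expresses, at 23.0 to 58.9 CPM in WT and 23.2 and 29.6 in PCa. *Pou5f1* and *Nanog* had 0 counts in all 8 libraries, and *Esrrb* at most 0.0989 CPM. Of 9 neuroendocrine and neuronal genes, 5 were tested, and 1 was called in PCa against WT, *Eno2*, a neuronal enolase, which fell by 2.68 on the log2 scale. Their median log2 fold change was -0.97. The list summed to 10.7 CPM in PCa 1 and 10.9 in PCa 2, below the 27.1 to 39.4 of PIN and within the 9.61 to 35.8 of WT. *Chga*, which encodes chromogranin A, had 0.933 and 0.0343 CPM there and *Syp*, which encodes synaptophysin, 1.22 and 0.206, while *Ncam1*, a neural adhesion gene, had 7.27 and 8.85 and *Tubb3* 0.290 and 1.37, and none of these was called. The basal epithelial list, which includes *Trp63* and *Krt5*, had 8 of 8 genes tested and 0 called in any comparison, with 383 to 836 CPM in WT and 864 and 547 in PCa. *Itga6*, an integrin and the most abundant gene of the list, had 115 CPM in PCa 1 and 519 in PCa 2. The next, *Krt15*, a basal keratin, had 368 CPM in PCa 1 and 1.13 in PCa 2, and *Krt5* had 117 and 4.7, *Krt14* 74.3 and 0.309, *Col17a1* 135 and 0.377, and *Dsc3* 3.38 and 0. *Trp63*, the basal transcription factor, had 46 and 21.3. All of these but *Itga6* were thus lower in PCa 2 than in PCa 1, as *Sox2* was, and their part in the *Sox2* values was not tested.

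The SOXF genes *Sox17* and *Sox18*, which act in arterial, venous and lymphatic endothelium, showed no difference beyond the spread of the libraries. *Sox17* had 2.13, 0.363 and 1.65 CPM in WT, 1.30, 2.41 and 0.942 in PIN, and 1.03 and 2.06 in PCa. *Sox18* had 3.91, 0.408 and 1.28 CPM in WT, 2.05, 1.41 and 2.18 in PIN, and 1.61 and 1.44 in PCa. Both were lowest in WT 2, with 8 and 9 counts. In PCa over WT the log2 fold changes were 0.16 (SE 0.81, adjusted p = 0.924 with edgeR) for *Sox17* and -0.29 (SE 0.85, adjusted p = 0.860 with edgeR) for *Sox18*. Without WT 2 the first turned to -0.29, and without WT 1, the WT library with much seminal vesicle RNA, the second turned to 0.84.

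Endothelial genes were spread in a similar way. The 12 genes of the list, all tested, summed to 85.6 CPM in WT 2, 189 and 138 in WT 1 and WT 3, 148 to 191 in PIN, and 168 and 228 in PCa. Per 1000 CPM of this sum, *Sox17* stood at 9.14 ± 4.27 in WT (SD, n = 3), 9.04 ± 3.44 in PIN (n = 3) and 6.11 and 9.03 in PCa, and *Sox18* at 11.6 ± 8.21, 11.5 ± 3.59, and 9.55 and 6.32. In WT 2, *Emcn* alone held 54.2 of the 85.6 CPM, against 21.7 and 34.3 CPM in WT 1 and WT 3. The low ratios of WT 2, 4.23 for *Sox17* and 4.76 for *Sox18*, and the WT means and SDs thus depend on that gene. Among the endothelial genes 1 was called in PCa against WT, *Emcn*, a sialomucin of veins and capillaries, which fell by 1.85 on the log2 scale, and the median log2 fold change was 0.82. *Emcn* was also the only gene of the list that was not at its lowest WT level in WT 2. Of 12 partners and vessel genes of SOXF, all tested, 1 was called, *Efnb2*, an arterial ligand, with 65.2 to 84.2 CPM in WT and 26.6 and 25.9 in PCa (log2 fold change -1.45), and the median was 0.47. *Notch4* and *Dll4*, Notch pathway genes of arteries, were both lowest in WT 2, and neither was called. *Notch4* had 0.136 to 5.39 CPM in WT, 3.62 to 4.75 in PIN, and 2.8 and 8.37 in PCa, and *Dll4* 0.181 to 2.97 in WT, 2.02 to 2.34 in PIN, and 4.15 and 4.22 in PCa.

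**Figure D3:**
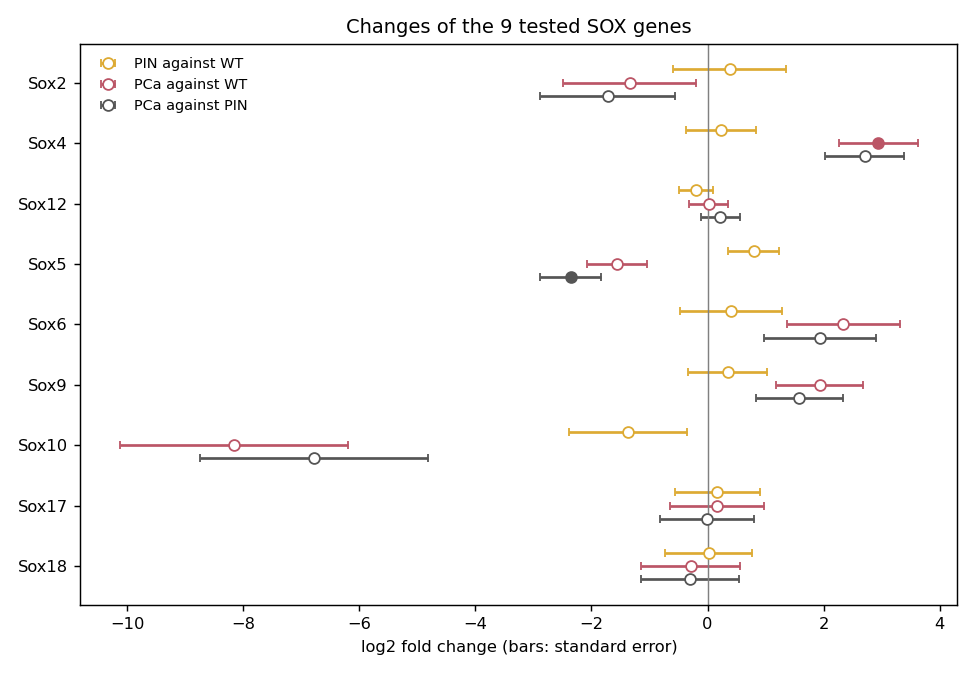
Log2 fold change (points) and standard error (bars) of the 9 tested SOX genes in the 3 comparisons between WT, PIN and PCa, with filled points for called genes. Filled points mark *Sox4* in PCa against WT (2.94) and *Sox5* in PCa against PIN (-2.36), and *Sox10* has the widest error (1.96 in both comparisons with PCa).

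The 2 tumors were set against each other, with 1 library each and thus no test. Of the 9 SOX genes, 3 were over 2-fold higher in PCa 1 (*Sox2*, *Sox4* and *Sox9*), against 22.9% of all tested genes. Another 1, *Sox6*, was over 2-fold higher in PCa 2, against 12.1%, and 34.9% of all genes were over 2-fold apart in either direction. *Sox4* was 5.99-fold and *Sox9* 3.35-fold higher in PCa 1. The other 5 were within 2-fold on the log2(CPM + 0.1) scale, *Sox10* because it was at 0 in both. PCa 1 also held more leukocyte RNA, with 147 CPM for 7 genes led by *Csf1r* and *Ptprc* against 19.0 in PCa 2 and 32.2 to 91.6 in WT and PIN, while the sum of 7 fibroblast genes, led by *Dcn* and *Col3a1*, was 820.3 CPM in PCa 1, within the 585 to 1142 of WT and PIN, and 297 in PCa 2, below all other libraries. Neither list had a called gene in any comparison, and their part in the difference between tumors was not tested.

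**Figure D4:**
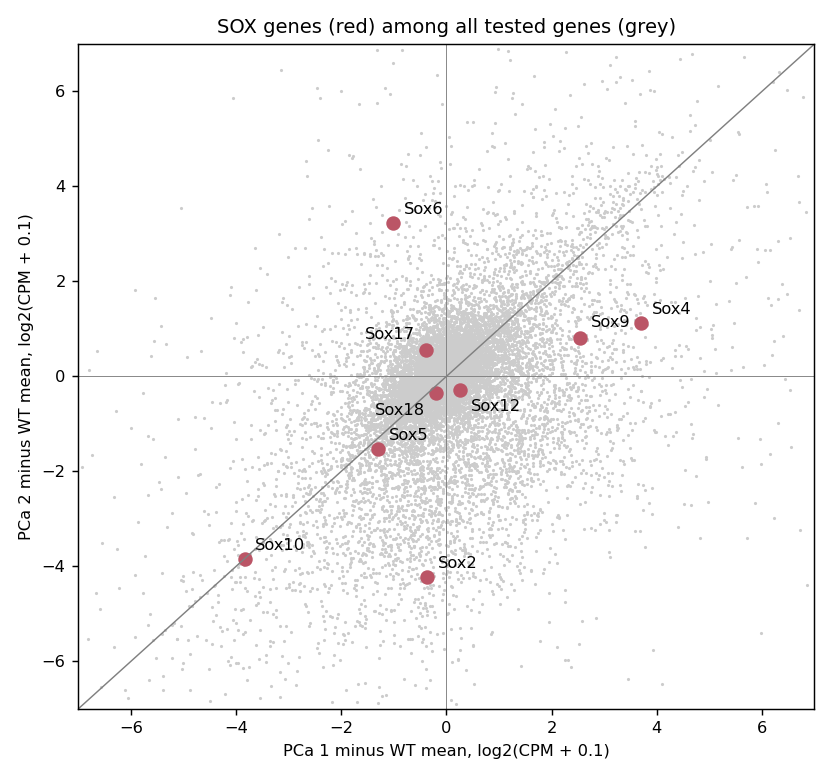
Difference of PCa 1 (x axis) and PCa 2 (y axis) from the WT mean in log2(CPM + 0.1), with the 9 tested SOX genes in red and all tested genes in grey, of which 114 lie outside the axes. *Sox4* (3.71 and 1.13) and *Sox9* (2.55 and 0.81) were above WT in both tumors and further in PCa 1, *Sox6* was at -1.02 and 3.24, and *Sox2* at -0.36 and -4.23.

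To describe which genes had the pattern most like that of a SOX gene, Pearson's r of log2(CPM + 0.5) was computed over the 8 libraries, which fall into 3 groups. The values are a description, and with so many genes a few close matches are always found. *Sox4* was most like *Neto2* (r = 0.987), *F3*, which encodes tissue factor, and *2810404F17Rik*. *Sox9* was most like *Pgap1* (r = 0.972), *Dtx4* and *Tmem20*. *Sox6* was most like *Lef1* (r = 0.993), *Abcc9* and *Klhl32*. *Sox5* was most like *Alpk2* (r = 0.983), *Pcdh9* and *Pln*, which encodes phospholamban of muscle. *Sox2* was most like *Prickle2* (r = 0.986), *Prrx1*, a mesenchymal homeobox gene, and *Gli3*, a hedgehog effector. *Sox10* was most like *Man2c1* (r = 0.982), *Srf* and *Kctd17*, *Sox12* like *Unc80* (r = 0.988), *Sncg* and *Zfp213*, *Sox17* like *2310015A10Rik* (r = 0.969), *Sema6c* and *Il17re*, and *Sox18* like *Lynx1* (r = 0.984), *Hs1bp3* and *Slc7a4*.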

How the data were processed

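The authors removed adapters from paired-end reads with cutadapt 1.9.1, aligned them to mm9 with HISAT2 2.1.0 and counted reads per gene with HTSeq 0.6.1. The deposited values are raw counts, and the deposited exon length of each gene, another kind of value, was used for TPM. Replicate numbers come from the labels.

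The tests were run with edgeR 4.0.16 under R 4.3.3 (quasi-likelihood F-test, TMM normalization, Benjamini-Hochberg adjustment over 14034 genes above 1 CPM in 2 or more libraries). All 8 libraries entered 1 model with 3 groups and 5 residual degrees of freedom, and the common biological coefficient of variation was 0.489. The steps were tested on simulated counts. Total counts per library limit the precision of genes with few counts, and 2 PCa libraries limit every comparison with PCa. Intervals and floors (3 counts) cover counting error only. CPM used effective library sizes.

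The SOX genes and all gene lists were chosen with earlier results of these data known. Of each list up to 4 called genes with the largest change in PCa against WT were to be named, or the 2 most abundant where none was called. Other list genes were chosen after their values were seen. Luminal, prostate secretory, seminal vesicle and skeletal muscle lists served as tissue checks. Alternatives were DESeq2 1.42.0, upper-quartile normalization, testing without the filter, only the 2 groups compared, a replicate block and each library left out. Gene spans equal those of GENCODE vM1 for all 10 SOX genes. RefSeq promoters (GRCm38.p6) are of another build than the counts. Some genes of the lists are not reported here.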

Additional observations from a re-analysis of the deposited data

Results flagged for a closer look

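*Sox5* values lay on opposite sides of WT in PIN and in PCa: the 3 PIN libraries (2.26 to 3.31 CPM) all lay above the 3 WT libraries (1.09 to 1.94 CPM), and both PCa libraries (0.480 and 0.579 CPM) below them. Neither difference from WT passed, at 0.80 in PIN (adjusted p = 1) and -1.56 in PCa (adjusted p = 0.102, edgeR). The difference between them, which is that of PCa from PIN, was a log2 fold change of -2.36 (SE, the standard error, 0.53, adjusted p = 0.0464 with edgeR and Benjamini-Hochberg), with adjusted p from 0.000292 to 0.144 over the 13 alternatives. Both effects are taken against the same WT libraries.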

How the results depend on the processing

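In PIN against WT, 0 SOX genes were called in the main model (edgeR, 0 at an unadjusted p under 0.05) and under each of the 13 alternatives, DESeq2 included. For PCa against WT the count of 1 became 4 with DESeq2, 2 with no filter and 0 with only the 2 groups compared, and it ran from 0 to 2 with 1 library left out. For PCa against PIN the count of 1 became 3 with DESeq2, 0 with upper-quartile normalization, 0 with no filter and 0 with only the 2 groups compared, and it ran from 0 to 3 with 1 library left out. The DESeq2 counts of both comparisons include *Sox10*, which passed the filter only through WT 1 and WT 3. With the replicate block the counts were 0 and 0 (*Sox4* in PCa against WT at 2.34, adjusted p = 0.112 with edgeR). Same-numbered libraries come from different animals, the correlations of their deviations ran from -0.0463 to 0.273 over 7 pairs, and not every library correlated best with its own number. The cause was not tested. Over all genes, calls in PCa against WT went from 1198 to 2487 with DESeq2, 130 with only the 2 groups and 413 with the block, and in PCa against PIN from 803 to 1984, 388 and 151, of which 28 were higher under the block against 358 of 803 before.

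Over 344 repeated tests, 321 kept their direction. With every library kept, 3 turned: *Sox12* in PCa against WT (-0.01 with no filter), *Sox18* in PCa against WT (0.13 with the replicate block) and *Sox17* in PCa against PIN (0.01 with DESeq2). With 1 library left out, the log2 fold changes that changed sign in PIN against WT ran from -0.22 to 0.44 for *Sox4*, -0.56 to 0.72 for *Sox9*, -0.42 to 0.14 for *Sox12*, -0.30 to 0.62 for *Sox17* and -0.46 to 1.15 for *Sox18*. In PCa against WT they ran from -1.04 to 3.28 for *Sox6*, -0.27 to 0.37 for *Sox12*, -0.40 to 0.61 for *Sox17* and -0.76 to 0.84 for *Sox18*. In PCa against PIN they ran from -1.44 to 2.88 for *Sox6*, -0.06 to 0.49 for *Sox12* and -0.57 to 0.46 for *Sox17*. *Sox10* fell under the filter without WT 1, without WT 3 and, in PCa against PIN, with only the 2 groups compared.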

Other observations

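Another 8 genes of the table are named Sox and a number, and 2 of them were tested and 0 called. Those given here were chosen after their values were seen. *Sox13*, the remaining SOXD gene, had 17.3, 6.89 and 16.5 CPM in WT, 9.76 to 15.2 in PIN, 27.3 in PCa 1 and 63.5 in PCa 2. Both tumors lay above all WT and PIN libraries, with a log2 fold change of 1.74 in PCa over WT (SE 0.49, adjusted p = 0.0672 with edgeR and Benjamini-Hochberg). *Sox7*, a SOXF gene of endothelium, had 2.52, 5.85 and 3.07 CPM in WT, 1.02 to 1.58 in PIN, and 1.29 and 1.37 in PCa, so that it was highest in WT 2, where *Sox17* and *Sox18* were lowest. Its log2 fold change was -1.55 in PIN over WT (SE 0.47, adjusted p = 1 with edgeR) and -1.52 in PCa over WT (SE 0.54, adjusted p = 0.121 with edgeR). *Sox8*, *Sox15*, *Sox21* and *Sox30* stayed under the filter, and *Sox3* and *Sox14* had 0 counts in every library. *Sox15*, an epithelial SOX gene, had 88 counts in PCa 1 and 5 to 26 elsewhere.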
